A study of Mus musculus with 12 samples.

Results

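Pitx1, Pitx3, Otx1, Otx2, Phox2a, Prrx1 and Alx4 are 7 genes of the paired-like homeobox class, chosen by symbol from the 55536 annotated genes and all found once. They were followed in bulk RNA-seq of primary mouse oligodendrocyte precursor cells (OPCs), the dividing cells that give rise to myelinating oligodendrocytes, across 12 libraries in 4 groups of 3. The cells came from pooled brains of P4 to P6 pups, and replicates came from different litters. Ctr cells were left untreated, EZH2i cells received the EZH2 inhibitor EPZ011989 at 1.5 µM for 4 days with renewal every 48 h, IFN-γ cells received 100 ng/ml of interferon-gamma for 6 h, and IFN-γ + EZH2i cells received both, the cytokine being added at the end of the inhibitor course. All groups shared the mouse line Sox10:Cre-RCE:LoxP(EGFP) as the labels and the study's methods describe it, in which a Sox10-driven Cre turns on EGFP for good in the oligodendrocyte lineage and also in neural crest derivatives. The cells were isolated either by sorting EGFP or with magnetic beads against CD140a, and the labels do not say which was used for which library. The labels also carry the tag EAE (a mouse model of multiple sclerosis) for every library, Ctr included, whereas the described source is cultured pup cells.

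EZH2 is the catalytic subunit of Polycomb repressive complex PRC2, which trimethylates lysine 27 of histone H3 and keeps many developmental regulators silent in cells that do not use them. Homeobox genes are among the best known of its targets, and paired-like genes are the homeobox class that resembles the homeodomain of Pax proteins without carrying a paired domain. Prrx1 shapes limb and craniofacial mesenchyme, Alx4 acts in the same tissues, Otx1 and Otx2 pattern the fore- and midbrain, Pitx1 specifies hindlimb and pituitary, Pitx3 is needed for midbrain dopaminergic neurons and the lens, and Phox2a for noradrenergic neurons. IFN-γ is a cytokine that induces antigen presentation and chemokine genes. The comparisons asked whether blocking EZH2 changed expression at rest, and whether it changed it once cells met IFN-γ.

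Of the 7 genes, 6 are placed here in 2 classes by the residue at homeodomain position 50, which sets the preferred binding site: a lysine there favours TAATCC, and a glutamine favours TAATTA. Codons 47 to 56 of these 6 homeoboxes are printed below to show this difference, 5′ to 3′ on the coding strand, read from the GENCODE transcripts of GRCm38, with codon 50 in capitals.
Pitx1: gtctggttcAAGaaccggcgagccaaatgg
Pitx3: gtgtggttcAAGaaccggcgcgccaagtgg
Otx1: gtttggttcAAGaaccgccgcgccaagtgc
Otx2: gtatggtttAAGaatcgaagagctaagtgc
Prrx1: gtgtggtttCAGaaccgaagagccaagttc
Alx4: gtttggttcCAGaaccggagggccaagtgg
Codon 50 was AAG (lysine) in Pitx1, Pitx3, Otx1 and Otx2, and CAG (glutamine) in Prrx1 and Alx4. The stretches lie at chr13:55826582-55826611, chr19:46136576-46136605, chr11:21997029-21997058, chr14:48659297-48659326, chr1:163257913-163257942 and chr2:93675296-93675325, each inside 1 coding exon, which is the last exon of the transcript used in each of the 6 genes but Alx4, where it is exon 3 of 4. Over the 180 bases of the whole homeobox, Pitx1 and Pitx3 were 87.8% identical and Otx1 and Otx2 80.0%, and the other pairs were between 58.9% and 74.4% identical. Each printed stretch is distinct among the 6.

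Every library carried the OPC markers: all 7 of Pdgfra, Cspg4, Sox10, Olig1, Olig2, Gpr17 and Ptprz1 passed the low-count filter, and their summed level in CPM (counts scaled to library size with TMM factors) was 8110 to 8380 in Ctr, 6700 to 7100 in EZH2i, 5290 to 7130 in IFN-γ and 4300 to 5200 in IFN-γ + EZH2i. Library totals were between 17403896 and 66546017 estimated counts, a 3.82-fold range, so 3 counts, the floor used here, correspond to between 0.0455 and 0.169 CPM. Of the other cell types listed, the 5 oligodendrocyte markers summed to 654 to 1560 CPM, the 5 astrocyte markers to 823 to 2090 and the 5 microglia markers to 0.621 to 1.59, with Aif1 at or under the floor throughout. The oligodendrocyte and endothelial sums moved with the inhibitor and are given by group beside Otx1 and Alx4. The cytokine was seen at Cxcl10, a chemokine gene, with a log2 fold change of 8.72 without and 9.53 with EZH2i (edgeR's quasi-likelihood test, adjusted p = 6.01e-07 and 2.87e-07). Ezh2 mRNA, which the inhibitor does not remove, was 49.4 ± 5.21 CPM in Ctr, compared with 39.6 ± 7.66 CPM in EZH2i (SD, n = 3). These are bulk libraries, so fewer cells of a type and less RNA per cell cannot be told apart.

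Prrx1 was by far the most abundant of the 7 genes. In TPM, a scale that allows for transcript length and library size, it averaged 25.4 TPM over the 12 libraries, followed by Otx2 at 1.06 and Otx1 at 0.978, Alx4 at 0.155, Pitx3 at 0.0661, Phox2a at 0.0444 and Pitx1 at 0.029. By mean CPM, Prrx1 stood above 91.3% of the genes tested, while Otx1 stood above 36.4%, Otx2 above 29.8% and Alx4 above 24.3%. The order of Otx1 and Otx2 in TPM was not the same in every group. Otx1 was at 1.32 ± 0.395 TPM and Otx2 at 0.858 ± 0.118 TPM in Ctr, and 0.697 ± 0.291 and 1.22 ± 0.137 TPM in IFN-γ + EZH2i (SD, n = 3), with no overlap of the libraries in either group, whereas in EZH2i and in IFN-γ their libraries overlapped. Alx4 (0.0591 ± 0.00332 TPM) could not be separated from Pitx3 (0.0622 ± 0.04 TPM) in Ctr.

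Pitx1, Pitx3 and Phox2a did not pass the filter on low counts and were at or near the counting floor in all 4 groups. Pitx1 had 15 counts in all 12 libraries together, at most 4 in 1 of them. It had 0, 1 and 0 counts in Ctr, 2, 1 and 3 in EZH2i, 1, 0 and 0 in IFN-γ, and 4, 1 and 2 in IFN-γ + EZH2i. Pitx3 had 44 counts, with 7, 1 and 4 in Ctr, 5, 3 and 3 in EZH2i, 4, 2 and 0 in IFN-γ, and 3, 6 and 6 in IFN-γ + EZH2i. Phox2a had 28, with 3, 0 and 1 in Ctr, 1, 3 and 5 in EZH2i, 7, 3 and 0 in IFN-γ, and 1, 3 and 1 in IFN-γ + EZH2i. The groups overlapped for all 3 genes in all 4 pairwise comparisons, and a difference was not detectable at this depth. With the filter removed, the smallest edgeR unadjusted p among these 3 genes was 0.0411, for Pitx1 in the comparison of EZH2i averaged over both IFN-γ levels, and its adjusted p was 0.527. Pitx1 also shares its position with Gm47071, an antisense transcript at 2.01 ± 0.608 CPM in Ctr (SD, n = 3), and Phox2a overlaps the 3′ part of Inppl1 on the other strand, so single counts of these genes are uncertain unless the counting used strand, which is not given in the sources used here.

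The remaining 4 genes were tested with edgeR's quasi-likelihood test over 18995 genes. None passed a Benjamini-Hochberg adjusted p of 0.05 in any of the 6 comparisons of the group-only fit. At that threshold the test called 0.405% of all genes with EZH2i alone, 0.353% with EZH2i under IFN-γ, 8.75% with IFN-γ alone, 8.07% with IFN-γ in EZH2i cells, 2.22% with EZH2i averaged over both IFN-γ levels and 0.0% in the interaction. At an unadjusted edgeR p under 0.05, 2 of the 4 genes passed with EZH2i alone, 1 with EZH2i under IFN-γ, 2 with IFN-γ alone, 2 with IFN-γ in EZH2i cells, 2 in the EZH2i average and 0 in the interaction. The shares of all genes at that unadjusted p were 7.04%, 6.42%, 19.0%, 17.7%, 12.3% and 0.669% in the same order. DESeq2 in place of edgeR called none of the 7 with EZH2i alone, with EZH2i under IFN-γ, with IFN-γ alone or in the interaction, 1 (Prrx1, adjusted p = 0.0339) with IFN-γ in EZH2i cells, where it called 8.87% of all genes, and 2 (Otx1 and Alx4) in the average, where it called 3.74%.

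**Figure D1:**
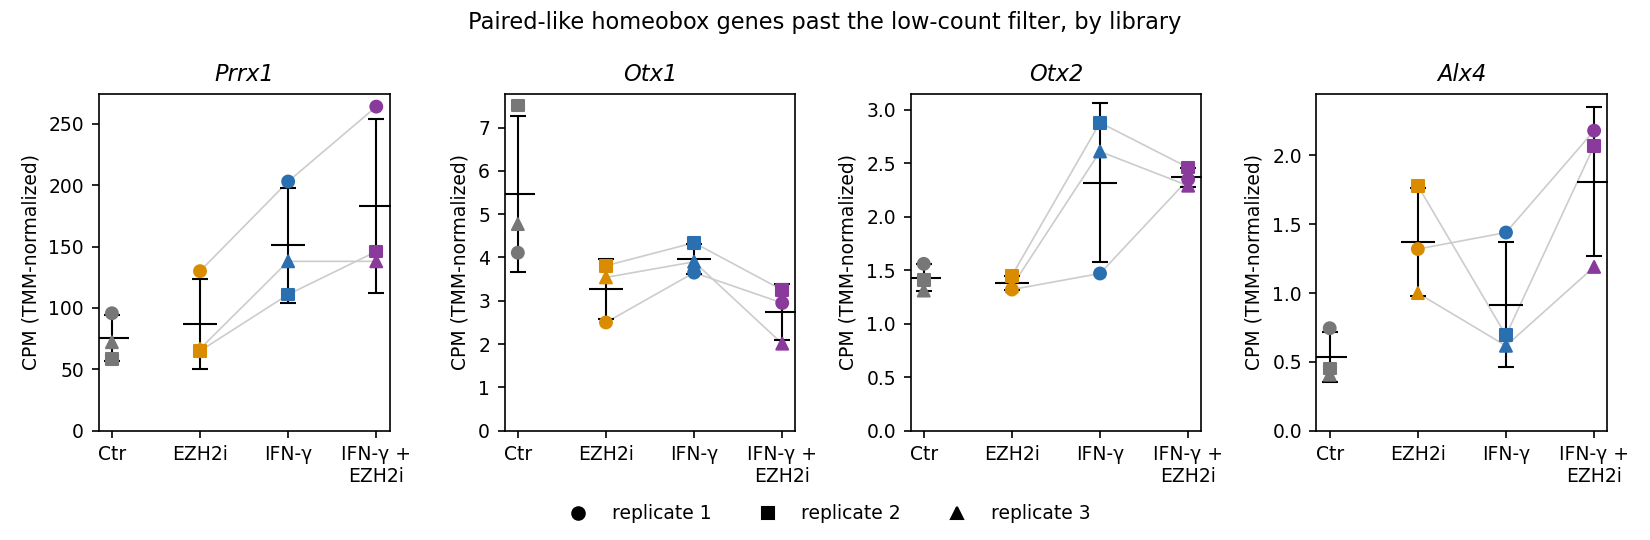
TMM-normalized CPM of the 4 genes past the low-count filter in each library (points; shape gives the replicate number, lines join the same number in the 3 treated groups), with the mean and SD of each group of 3 (black). All Prrx1 points with IFN-γ lie above those of the matching group without it, all Otx1 points with EZH2i lie below those of the matching group, and Otx2 is at 1.31 to 1.56 CPM in all 6 libraries without IFN-γ.

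Prrx1 was at 95.7, 58.5 and 72.1 CPM in Ctr, 130.0, 65.0 and 66.7 CPM in EZH2i, 203, 111 and 138 CPM in IFN-γ, and 264, 146 and 138 CPM in IFN-γ + EZH2i. Every IFN-γ library lay above every Ctr library, and every IFN-γ + EZH2i library above every EZH2i library, whereas the inhibitor groups overlapped their partners. Libraries numbered 1 were the highest of their group throughout, with a mean of 173 CPM against 95.1 CPM for number 2 and 104 CPM for number 3. Among all genes tested, 13.5% were higher without overlap with IFN-γ alone and 11.8% with IFN-γ in EZH2i cells. The fitted log2 fold change with IFN-γ alone was 1.00 (SE 0.34, 95% interval 0.26 to 1.74), with an edgeR adjusted p of 0.109. In EZH2i cells it was 1.07 (SE 0.34, 0.32 to 1.81), with an edgeR adjusted p of 0.0875.

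Libraries of the same number were taken as paired in this second comparison because of their correlations in these data (0.605, 0.633 and 0.686). The within-number ratios of Prrx1 for IFN-γ + EZH2i over EZH2i were 2.03, 2.24 and 2.07, a narrower range than that of its level among libraries of a group. In the edgeR fit that adds replicate number as a blocking term, the log2 fold change was 1.08 and the adjusted p 1.31e-05, where 19.3% of all genes were called. Between Ctr and IFN-γ the pairing of numbers was borderline. The ratios there were 2.12, 1.90 and 1.92, and the blocked edgeR fit gave 0.98 with an adjusted p of 3.21e-05, where 21.2% of all genes were called. Without EZH2i replicate 1 the group-only fit in EZH2i cells gave 1.47 with an edgeR adjusted p of 0.0237, and without IFN-γ + EZH2i replicate 1 it gave 0.69 with an edgeR adjusted p of 0.306. Of 19 alternatives, 5 called Prrx1 in EZH2i cells and 2 with IFN-γ alone (0.73 to 1.20, adjusted p up to 0.367). The inhibitor itself left Prrx1 with a log2 difference of 0.21 (SE 0.34, -0.53 to 0.94, edgeR adjusted p = 0.976) at rest and 0.27 (SE 0.34, -0.46 to 1.01, adjusted p = 0.999) under IFN-γ.

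Of the Prrx1 transcripts, Prrx1-204 took 42.1% of the reads and Prrx1-201 40.3%, both protein-coding, and Prrx1-205, a processed transcript, 13.6%. In each of the 4 groups Prrx1-204 had between 40.9% and 43.3% and Prrx1-201 between 39.3% and 41.0%, so the split between them differed little while the level of the gene differed. Prrx1 is also a gene of mural and mesenchymal cells. The 4 pericyte markers Pdgfrb, Rgs5, Kcnj8 and Acta2 summed to 7.75 to 15.6 CPM in Ctr, 4.11 to 13.8 CPM in EZH2i, 15.1 to 23.2 CPM in IFN-γ and 14.6 to 20.1 CPM in IFN-γ + EZH2i. Of the 3 that passed the filter, Kcnj8 was called higher in both IFN-γ comparisons. The 5 fibroblast markers Col1a1, Col1a2, Col3a1, Dcn and Lum summed to 0.734 to 1.38, 1.53 to 2.36, 1.94 to 3.32 and 2.25 to 2.91 CPM in the same order, with Lum, of the 4 past the filter, called higher in both IFN-γ comparisons. Col1a1, Col1a2 and Col3a1 were not called and did not follow Lum. Their log2 differences were 0.09, 0.75 and -0.17 with IFN-γ alone, and -0.56, -0.57 and 0.04 with IFN-γ in EZH2i cells. None of the markers in either list was at or under the floor in all libraries, and the part of these cells in the Prrx1 difference was not tested.

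Postn, encoding the matrix protein periostin, and Tnc, encoding tenascin-C, were the 2 genes fixed as ones that Prrx1 acts on. Postn was at 1.6, 0.452 and 0.865 CPM in Ctr, 2.54, 2.08 and 1.35 CPM in EZH2i, 7.34, 2.5 and 3.81 CPM in IFN-γ, and 9.23, 5.2 and 7.95 CPM in IFN-γ + EZH2i. It rose with IFN-γ alone by 2.19 on the log2 scale (SE 0.48, edgeR adjusted p = 0.0129) and in EZH2i cells by 1.92 (SE 0.46, edgeR adjusted p = 0.0235). The call with IFN-γ alone was lost without Ctr replicate 2 (edgeR adjusted p = 0.0612) or 3 (0.0644), on length-scaled TPM (0.0899) and on only the 6 libraries compared (0.0507), and the call in EZH2i cells without EZH2i replicate 2 (0.0796) or 3 (0.103) or without IFN-γ + EZH2i replicate 1 (0.0712) or 3 (0.0685). Of 19 alternatives, 15 kept each call. Tnc did not pass the group-only fit in any comparison. With replicate number as a block it was called with IFN-γ in EZH2i cells (log2 fold change 0.70, edgeR adjusted p = 0.000724) and, where the pairing was borderline, with IFN-γ alone (0.98, edgeR adjusted p = 4.74e-05).

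Alx4, at a far lower level, had the largest fitted difference under the inhibitor among the 4 genes past the filter. Without the filter the fitted value of Pitx1 was larger in the average, 2.31 (SE 1.05) against 1.18 (SE 0.30), from the few counts given above. The same held at rest (1.8 against 1.36) and under IFN-γ (2.81 against 0.99, with Pitx3 at 1.47). Alx4 was at 0.745, 0.452 and 0.407 CPM in Ctr (21, 8 and 24 counts), 1.32, 1.78 and 1.00 CPM in EZH2i (37, 65 and 66 counts), 1.44, 0.693 and 0.617 CPM in IFN-γ, and 2.18, 2.07 and 1.19 CPM in IFN-γ + EZH2i. All 3 EZH2i libraries lay above all 3 Ctr libraries, which 7.37% of all genes did. Under IFN-γ the groups overlapped, IFN-γ replicate 1 lying above IFN-γ + EZH2i replicate 3. The log2 fold change was 1.35 at rest (SE 0.43, 0.42 to 2.29, edgeR adjusted p = 0.344) and 1.00 under IFN-γ (SE 0.41, 0.11 to 1.89, edgeR adjusted p = 0.671). Under IFN-γ, where numbers were taken as paired, the within-number ratios were 1.51, 2.98 and 1.93. The blocked edgeR fit there gave 1.01 (SE 0.28, adjusted p = 0.0789).

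Averaged over both IFN-γ levels, 6 libraries against 6, Alx4 differed by 1.18 (SE 0.30, 0.53 to 1.82) with an edgeR adjusted p of 0.0719, which ranged from 0.00349 to 0.178 over 17 alternatives, 3 of which called it. The 0.00349 came from the edgeR fit with replicate number as a block. Between Ctr and EZH2i the same-number correlations were 0.583, 0.0929 and 0.608. Number 2 fell short of the 0.1 set here for pairing, so the 0.00349 is not taken as a paired result. DESeq2 gave an adjusted p of 0.00838. Without IFN-γ replicate 1 the edgeR fold change was 1.41 and the adjusted p 0.0308. The difference in the inhibitor's effect between the IFN-γ levels was -0.36 (SE 0.59, -1.64 to 0.92, edgeR adjusted p = 0.999912), an interval that allows effects of either sign. With IFN-γ alone Alx4 differed by 0.76 (SE 0.43, -0.18 to 1.71, adjusted p = 0.396). Its reads were split between Alx4-201 and Alx4-202, both protein-coding, with Alx4-201 at 48.2% in Ctr, 70.3% in EZH2i, 56.6% in IFN-γ and 78.5% in IFN-γ + EZH2i. These shares rest on few counts and were not tested. Alx4 partly overlaps Ext2, which lies on the opposite strand and was at 68.5 ± 3.49 CPM in Ctr, compared with 76.6 ± 7.93 CPM in EZH2i (SD, n = 3), so its counts are uncertain where reads of the 2 genes cannot be told apart. Ext2 itself was not called in any comparison.

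Msx1 and Msx2, homeobox genes of the craniofacial and limb tissue that Alx4 and Prrx1 pattern, passed the test in the averaged inhibitor comparison. Msx1 was at 1.87 ± 0.557 CPM in Ctr, 5.12 ± 1.90 in EZH2i, 3.46 ± 0.843 in IFN-γ and 7.22 ± 3.24 in IFN-γ + EZH2i (SD, n = 3). It rose by 1.25 on the log2 scale (SE 0.27, edgeR adjusted p = 0.0368). Msx2 was at 0.321 ± 0.125, 1.12 ± 0.236, 0.468 ± 0.354 and 1.56 ± 0.833 CPM in the same order, and rose by 1.78 (SE 0.41, edgeR adjusted p = 0.0443). The Msx1 call was kept in 8 of 17 alternatives and, among libraries left out in turn, only without IFN-γ replicate 1, EZH2i replicate 3 or IFN-γ + EZH2i replicate 3 (edgeR adjusted p up to 0.0982). The Msx2 call was kept in 5 of 17, and of the libraries left out only without IFN-γ replicate 1 (up to 0.122). Among the 4 Schwann cell and neural crest markers (Foxd3, Cdh19, Tfap2b and Ngfr), Tfap2b and Ngfr were called higher in the same average. Foxd3 (log2 fold change 5.0, edgeR adjusted p = 0.054) and Cdh19 (-0.19, 0.888) were not called. The list summed to 16.9 to 40.1 CPM in Ctr, 21.9 to 37.0 in EZH2i, 17.3 to 36.9 in IFN-γ and 21.4 to 36.6 in IFN-γ + EZH2i. The 4 endothelial markers (Cldn5, Pecam1, Cdh5 and Flt1) summed to 9.2 to 16.9 CPM in Ctr, 19.5 to 35.4 in EZH2i, 8.26 to 16.5 in IFN-γ and 17.1 to 32.5 in IFN-γ + EZH2i, with none of the 3 past the filter called in the group-only fit. The markers did not move alike. In the average Flt1 differed by 1.03 on the log2 scale, Pecam1 by 0.19 and Cldn5 by -0.2. The part of both marker lists in the Alx4 and Msx differences was not tested.

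**Figure D2:**
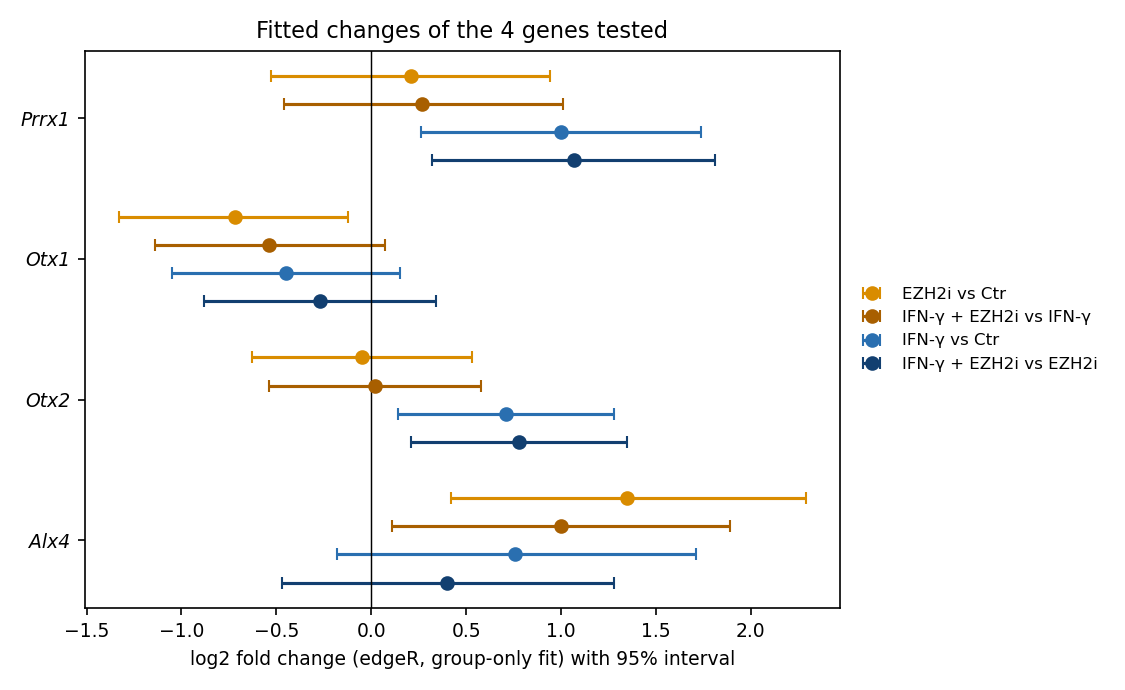
Fitted log2 fold change of Prrx1, Otx1, Otx2 and Alx4 (x axis) in 4 comparisons, with 95% intervals from the group-only edgeR fit over 12 libraries. The IFN-γ intervals of Prrx1 and Otx2 lie above 0 in both comparisons, those of Alx4 with EZH2i also, and the Otx1 interval with EZH2i alone lies below 0 (-1.33 to -0.12).

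Otx1 and Otx2, the pair with closely related homeoboxes, are given side by side. Otx1 was at 4.11, 7.51 and 4.77 CPM in Ctr, 2.50, 3.81 and 3.54 CPM in EZH2i, 3.65, 4.34 and 3.90 CPM in IFN-γ, and 2.95, 3.25 and 2.01 CPM in IFN-γ + EZH2i. Every library with the inhibitor lay below every library of its partner group, at rest and under IFN-γ, as 5.34% and 4.26% of all genes did. The log2 difference was -0.72 at rest (SE 0.28, -1.33 to -0.12, edgeR adjusted p = 0.525) and -0.54 under IFN-γ (SE 0.28, -1.14 to 0.07, edgeR adjusted p = 0.854). The blocked edgeR fit under IFN-γ, where numbers were taken as paired, gave a difference of -0.56 (SE 0.2, adjusted p = 0.177). Averaged, it was -0.63 (SE 0.20, -1.06 to -0.20) with an edgeR adjusted p of 0.157, and DESeq2 called it with an adjusted p of 0.0462. With IFN-γ alone Otx1 differed by -0.45 (SE 0.27, edgeR adjusted p = 0.435), the groups overlapping. Otx1-201, protein-coding, took 65.8% of the reads and the retained-intron transcript Otx1-203 32.8%, with Otx1-203 at 25.8% in Ctr, 37.7% in EZH2i, 35.9% in IFN-γ and 32.2% in IFN-γ + EZH2i. The 5 oligodendrocyte markers (Mbp, Mog, Mag, Mobp and Cnp), summed, were also lower with the inhibitor, at 1280 to 1560 CPM in Ctr and 705 to 976 CPM in EZH2i, and at 1220 to 1450 CPM in IFN-γ and 654 to 1110 CPM in IFN-γ + EZH2i. Of these, Mbp alone was called in the averaged group-only fit (log2 fold change -0.93, edgeR adjusted p = 0.0225). Their part in the Otx1 difference was not tested.

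Otx2 was at 1.56, 1.41 and 1.31 CPM in Ctr, compared with 1.32, 1.45 and 1.35 CPM in EZH2i. It was at 1.47, 2.88 and 2.61 CPM in IFN-γ, and 2.35, 2.46 and 2.29 CPM in IFN-γ + EZH2i. The inhibitor groups overlapped at both IFN-γ levels, with log2 differences of -0.05 (SE 0.26, -0.63 to 0.53) and 0.02 (SE 0.26, -0.54 to 0.58). With IFN-γ, Otx2 in EZH2i cells lay above without overlap, and in cells without the inhibitor IFN-γ replicate 1 alone stayed among the Ctr values.

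The Otx2 log2 fold change was 0.71 with IFN-γ alone (SE 0.26, 0.14 to 1.28, edgeR adjusted p = 0.143) and 0.78 in EZH2i cells (SE 0.26, 0.21 to 1.35, edgeR adjusted p = 0.105). Within-number ratios in EZH2i cells were 1.78, 1.70 and 1.69, and the blocked edgeR fit gave an adjusted p of 0.0362. Without IFN-γ replicate 1 the fold change with IFN-γ alone was 0.95, with an edgeR adjusted p of 0.032, and the adjusted p in EZH2i cells was 0.046. Of 19 alternatives, 1 called Otx2 with IFN-γ alone (log2 fold change 0.24 to 0.95, adjusted p up to 0.771, the lowest fold change being on length-scaled TPM) and 2 in EZH2i cells (0.54 to 0.82, adjusted p up to 0.447). Reads of Otx2 were spread over 11 annotated transcripts, none with more than 31.9% (Otx2-201), and at 25 to 169 counts per library their shares are not resolved. Otx2 is a gene of the choroid plexus, whose 5 markers Ttr, Folr1, Kcnj13, Clic6 and Kl summed to 0.39 to 0.734 CPM in Ctr, 1.01 to 1.49 CPM in EZH2i, 0.639 to 1.74 CPM in IFN-γ and 1.12 to 1.52 CPM in IFN-γ + EZH2i. Of the 3 past the filter, none was called in an IFN-γ comparison and Clic6 was called in the averaged inhibitor comparison. Their part in the Otx2 difference was not tested.

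The neurons for which Pitx3 and Phox2a are known were looked for through the genes these factors act on. Th and Dbh, the enzymes that make dopamine and noradrenaline, were at or under 3 counts in every library. Slc6a3, the dopamine transporter gene downstream of Pitx3, was at 0.142, 0.113 and 0.373 CPM in Ctr, 1.04, 2.05 and 1.08 CPM in EZH2i, 0.168, 0.4 and 0.324 CPM in IFN-γ and 0.769, 1.28 and 1.22 CPM in IFN-γ + EZH2i. It rose with the inhibitor by 2.20 on the log2 scale in the average (SE 0.35, edgeR adjusted p = 0.00592), and all 17 alternatives called it, with Pitx3 itself at most at 0.248 CPM in any library. The 4 dopaminergic markers (Slc6a3, Th, Slc18a2 and En1) summed to 4.86 to 5.09 CPM in Ctr, 8.06 to 11.7 in EZH2i, 3.97 to 4.96 in IFN-γ and 7.38 to 13.4 in IFN-γ + EZH2i, and Slc6a3 and En1 were called in the average. Slc18a2 did not rise there (log2 fold change -0.06, edgeR adjusted p = 0.959). The 4 noradrenergic markers (Dbh, Slc6a2, Th and Hand2) summed to at most 0.0709, 4.75, 0.536 and 14.1 CPM in the same order. Hand2 had no count in Ctr, made up nearly all of the highest sums in both EZH2i groups, and was the 1 marker past the filter and called in the average. The 6 general neuron markers summed to 16.1 to 19.4, 31.0 to 49.4, 18.1 to 30.0 and 34.9 to 62.6 CPM, with Snap25, Stmn2 and Syt1 called higher in the average. Their part in the Slc6a3 difference was not tested. Of the 16 genes fixed as acting with or downstream of the 7, 10 passed the filter. In the average 3 of them were called higher (Msx1, Msx2 and Slc6a3) and none lower, where 2.22% of all genes were called. Postn was the only one called with IFN-γ in either comparison, where 8.75% and 8.07% of all genes were called. The median log2 fold change of the 10 in the average was 0.81, beside 0.00 over all genes tested. A gene near 0 in 1 group can pass the filter through another group, so these values describe the 10 and not the 16. None of the 6 PRC2 and H3K27 demethylase genes (Ezh2, Ezh1, Eed, Suz12, Kdm6a and Kdm6b) was called in any comparison by edgeR in the group-only fit.

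Several other paired-like genes passed the test with the inhibitor. Of 22 listed, all were annotated, 3 had no count in any library and 3 passed the filter (Gsc, Prrx2 and Shox2). In the averaged inhibitor comparison all 3 were called higher, where 2.22% of all genes were called, and their median log2 fold change was 3.47. A gene near 0 in 1 group passes such a filter through the other group, so these counts describe the genes that passed and not the 22.

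Shox2, which shapes limb and heart, was at 0.142, 0.0565 and 0.0848 CPM in Ctr, compared with 4.47, 1.4 and 0.668 CPM in EZH2i. It was at 0.335, 0.24 and 0.0463 CPM in IFN-γ, and 2.69, 1.25 and 0.621 CPM in IFN-γ + EZH2i. In the group-only fit Shox2 was called in the average (edgeR adjusted p = 0.0106), but not at rest (0.0816) or under IFN-γ (0.293). Gsc (goosecoid), a gene of the gastrula organizer and later of craniofacial mesenchyme, was at 0, 0 and 0.119 CPM in Ctr, compared with 1.22, 0.685 and 0.941 CPM in EZH2i (edgeR adjusted p = 0.0407 at rest, 0.0732 under IFN-γ and 0.00268 in the average). Prrx2, the paralogue of Prrx1, was at 0, 0.0565 and 0.017 CPM in Ctr, compared with 0.357, 0.247 and 0.152 CPM in EZH2i. It was at 0.101, 0.107 and 0.0771 CPM in IFN-γ, and 0.983, 0.638 and 0.373 CPM in IFN-γ + EZH2i. In the group-only fit Prrx2 was called in the average (edgeR adjusted p = 0.00583), but not at rest (0.114) or under IFN-γ (0.0865). In the average all 3 were called in all 17 alternatives. Under IFN-γ, where numbers were taken as paired, the blocked edgeR fit called all 3. Its adjusted p was 0.00144 for Shox2, 0.00419 for Gsc and 0.00938 for Prrx2, where 748 of 18995 genes were called. DESeq2 called them there too (adjusted p = 0.0252, 5.32e-06 and 0.0109), among 263 of 22442 genes. At rest, 7 of the 19 alternatives kept the Gsc call. It was lost on leaving out any library but IFN-γ replicates 1 and 2 (edgeR adjusted p up to 0.165).

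**Figure D3:**
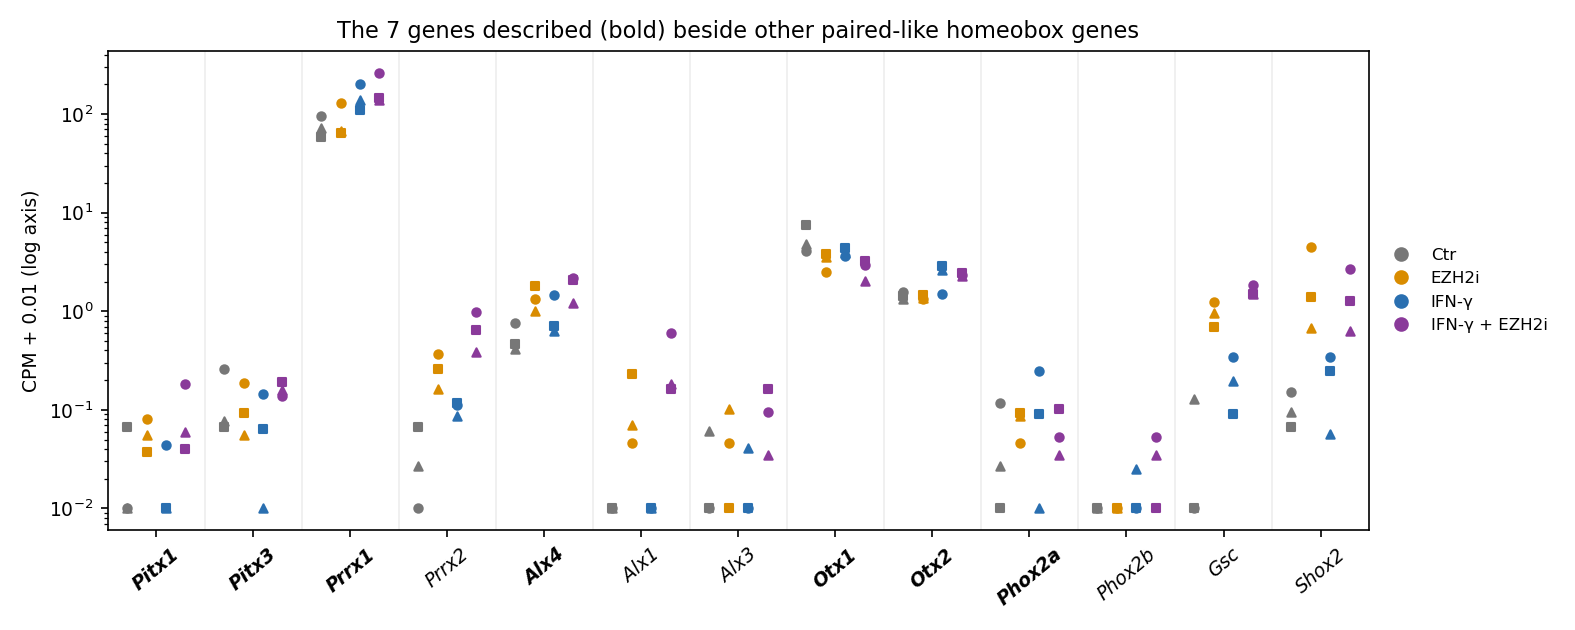
CPM plus 0.01 (log axis) in each of the 12 libraries for the 7 genes described (bold) and 6 other paired-like genes, coloured by group, with replicate number as shape (circle 1, square 2, triangle 3). Points at 0.01 are libraries with no count. Gsc, Shox2 and Prrx2 sit higher in the groups with EZH2i, while Pitx1, Pitx3 and Phox2a stay below 0.25 CPM in all groups.

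The 48 annotated genes within 100 kb of the 7 genes were examined in the same way. Of these, 26 passed the filter and none was called by edgeR in any of the 6 comparisons. Within the span of Prrx1 on its strand lies Gm37644, of unknown coding potential, at 0.525 ± 0.119 CPM in Ctr, 1.02 ± 0.225 in EZH2i, 1.12 ± 0.543 in IFN-γ and 2.06 ± 0.456 in IFN-γ + EZH2i (SD, n = 3), with a log2 difference of 1.07 with IFN-γ alone (edgeR adjusted p = 0.12) and 0.89 with the inhibitor in the average (edgeR adjusted p = 0.123). The 7 genes lie apart on 7 chromosomes, at chr13:55825051-55836192 (Pitx1, minus strand), chr19:46135685-46148326 (Pitx3, minus), chr11:21994764-22002897 (Otx1, minus), chr14:48657677-48673819 (Otx2, minus), chr7:101818313-101822726 (Phox2a, plus), chr1:163245119-163313710 (Prrx1, minus) and chr2:93642384-93681339 (Alx4, plus), in GRCm38.

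Windows of 300 bases around RefSeq transcription starts were available for 4 of the 7 genes, 7 windows in all. Polycomb-bound promoters are typically rich in CpG, so CpG was counted. The Phox2a window held 30 CpG, more than 88.3% of the 32851 mouse promoters in the table, and the Pitx3 window 20. The 4 windows of Otx2 held 6 to 16, and the Prrx1 window 6, beside a median of 7. The bases upstream of the start are printed for Prrx1, the most abundant gene, at chr1:163313711-163313900 (minus strand), and for Phox2a, a gene at the counting floor, at chr7:101818063-101818312 (plus strand), in GRCm38.p6, 5′ to 3′, with CpG in capitals.
Prrx1: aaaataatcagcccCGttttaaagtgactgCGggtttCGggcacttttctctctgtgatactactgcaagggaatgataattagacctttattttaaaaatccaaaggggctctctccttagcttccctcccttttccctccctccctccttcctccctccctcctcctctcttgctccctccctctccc
Phox2a: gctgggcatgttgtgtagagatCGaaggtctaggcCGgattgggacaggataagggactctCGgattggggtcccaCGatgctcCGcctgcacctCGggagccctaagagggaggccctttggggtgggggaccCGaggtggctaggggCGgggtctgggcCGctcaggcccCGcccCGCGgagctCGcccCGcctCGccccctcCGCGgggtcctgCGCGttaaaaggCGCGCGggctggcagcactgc
These stretches hold 3 CpG in 190 bases and 22 in 250 bases. The 300-base windows were also searched on both strands for the core of the interferon-stimulated response element, a pair of TTTC runs with 2 bases between them (in 3.44% of all promoters), and the homeodomain sites TAATTA (5.29%) and TAATCC (7.06%), which share the letters TAAT. Prrx1 held 1 TAATTA and neither of the other motifs, and Pitx3 and Phox2a held none of the 3. Otx2 held 1 TAATTA in 1 window, and 3 TAATTA and 1 TAATCC in another.

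The genes whose profile over the 12 libraries was most like each of the 4 were found by Pearson's r of log2(CPM + 0.5) among 16449 genes. For Prrx1 these were Tmem51 (r = 0.975), Nrg1 (0.970) and Hap1 (0.966), for Alx4 Tnfrsf10b (0.965), Igf2bp2 (0.948) and Map3k9 (0.938), for Otx1 Efemp2 (0.955), Nde1 (0.944) and Kif1b (0.935), and for Otx2 D730005E14Rik (0.928), Syt2 (0.926) and Pex5l (0.920). Between the 4 themselves r ran from -0.64 (Otx1 with Alx4) to 0.57 (Prrx1 with Alx4). The points share group and replicate number, so these values describe likeness of pattern in these libraries alone.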

How the data were processed

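Total RNA of 12 cultured OPC libraries was sequenced by the authors on stranded TruSeq libraries. Per the labels, reads were quantified with Salmon 0.8.2 on GRCm38 (mm10), and the deposited expected counts are Salmon's estimated counts per transcript, with TPM values scaled by the authors within each library beside them. The authors also deposited DESeq2 result tables with fold changes and p-values, which were not used. Here, estimated counts were summed per gene with the GENCODE M21 annotation and rounded. All 141862 transcripts matched. Genes were tested with edgeR 4.0.16 (quasi-likelihood, TMM, filterByExpr, all 12 libraries in 1 fit, group as only term, R 4.3.3) and Benjamini-Hochberg adjustment over 18995 genes at 0.05; DESeq2 1.42.0 and other alternatives are given below. The step was tested on simulated counts. The 7 genes and the gene lists were chosen with earlier results of these data known. Some items are not reported here. Named genes are the 7, the listed paired-like genes past the threshold with EZH2i, the listed targets, Ezh2 and Cxcl10, neighbours within 100 kb, and the 3 genes most like each of the 7 with a mean of at least 0.5 CPM. Replicates came from different litters. Replicate numbers were taken to pair libraries where every same-number correlation of deviations from group means exceeded 0.1: this held between EZH2i and IFN-γ + EZH2i (0.605, 0.633 and 0.686) and between IFN-γ and IFN-γ + EZH2i (0.741, 0.638 and 0.748), but not between Ctr and either EZH2i group (down to 0.0315). Between Ctr and IFN-γ it was borderline, 0.105 for number 2 on log2(CPM + 0.5) and 0.0854 on edgeR's log CPM. Counting floors of 3 counts cover counting error only.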

Additional observations from a re-analysis of the deposited data

How the results depend on the processing

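Over all genes, EZH2i alone gave 77 calls in the group-only fit, 308 with DESeq2, 353 with DESeq2 on the 6 libraries compared (added after seeing the data), 121 without the filter, 50 on length-scaled TPM, 33 in edgeR on those 6 libraries, 771 with the replicate block and 11 to 83 on leaving out 1 library. EZH2i under IFN-γ gave 67, 263, 197, 90, 30, 7, 748 and 10 to 65 in that order. The EZH2i average gave 422, 840 with DESeq2, 280 on length-scaled TPM, 2317 with the replicate block and 245 to 415 on leaving out 1 library. With the replicate block, IFN-γ alone gave 4032 calls (1663 without it, 1111 to 1710 on leaving out 1 library) and IFN-γ in EZH2i cells 3661 (1533, and 1078 to 1566). The cause of these differences was not tested. Of the 7 genes, 0 were called throughout the group-only fit. With the replicate block, 1 was called with EZH2i alone (Alx4, adjusted p = 0.0308), 1 with IFN-γ alone (Prrx1, 3.21e-05), 2 with IFN-γ in EZH2i cells and 2 in the EZH2i average (Alx4, 0.00349, and Otx1, 0.0143). DESeq2 called 1 with IFN-γ in EZH2i cells and 2 in the EZH2i average, and on 6 libraries 1 with IFN-γ alone (Prrx1, 0.00783) and 1 with IFN-γ in EZH2i cells. Without the filter 1 was called with IFN-γ in EZH2i cells (Prrx1, edgeR adjusted p = 0.0418). Leaving out 1 library gave 0 to 1 for IFN-γ alone, IFN-γ in EZH2i cells and the EZH2i average, and 0 for the others. RLE factors changed no call of the 7. Between Ctr and EZH2i number 2 fell short of the 0.1 set for pairing (0.0929), so block values there are not taken as paired results. Every library correlated best with its own number except at replicate 2 between Ctr and IFN-γ + EZH2i. The block changed no other call of the 7. Groups of 3 and genes under 1 CPM limit what can be resolved.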
